A study of Drosophila melanogaster with 17 samples.

Results

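Enteroendocrine (EE) cells of the adult Drosophila midgut were compared with intestinal progenitors, the pool of stem cells and enteroblasts from which they derive. The members were chosen by their cell type labels, 3 EE libraries and 5 progenitor libraries (titled ESG), which made 8 of the 17 samples of the series. All 8 were labelled wild type, adult day 3 and midgut, and each held RNA that was amplified from about 10000 sorted cells carrying green fluorescent protein. The labels name no driver. The study's methods describe EE cells as labelled by ProsV1-Gal4 and progenitors by esg-Gal4. Its text treats the progenitor and enterocyte profiles as earlier datasets and names no earlier EE dataset. The drivers of these libraries therefore rest on those methods alone. The progenitor group mixes stem cells with enteroblasts. Of the other 9 samples, the wild type EC libraries entered only 1 alternative fit, of the 11 wild type libraries, and the progenitors with altered Sox100B were not used here. No label says whether the replicates came from separate flies, so p-values measure the spread between these libraries, which may be technical. In bulk samples such as these, fewer cells of a type and less RNA per cell cannot be told apart.

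EE cells are the hormone-secreting cells of the gut epithelium. They cut prohormones into active peptides, store them in dense-core vesicles, and release them when nutrients, stretch or other stimuli let calcium into the cell. Progenitors instead divide, grow and hold contact with the basement membrane, and Notch, EGF receptor, JAK/STAT, Wingless, Hippo and insulin signals are known to control their division and fate. The comparison asked which parts of the transcriptome separate the hormone cell from the progenitor, beyond the hormones and the transcription factors themselves.

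Levels are given as RPKM, a read count divided by gene length and by the total of the library, and so a level per length, and differences as log2 fold changes of EE minus progenitors on log2(RPKM + 1), which understate the change of genes with low values. Of 17489 features, 8161 had 1 RPKM or more in no fewer than 3 of the 8 libraries and were tested with limma. A call needed a Benjamini-Hochberg adjusted p below 0.01 together with a log2 fold change beyond 0.5 in either direction. By that rule 2823 genes were called, 34.6% of those tested, of which 1640 (20.1%) were higher and 1183 (14.5%) lower in EE cells. Over all tested genes the median difference was -0.05 on the log2 scale. The balance of directions depended on which scaling was used. After median-of-ratios scaling it changed little, with 1689 genes higher, 1192 lower and a median of -0.03. After quantile normalization the median of all genes moved to -0.22, with 1463 genes higher and 1801 lower, and after scaling to the summed RPKM without ribosomal protein genes it moved to -0.55, with 1109 higher and 2832 lower. Each list below is therefore read against the median of all genes, and its counts against 20.1% higher and 14.5% lower. Without EE replicate 1, 2 or 3 the count of called genes was 1602, 1460 and 1534, and 396 of the 2823 genes could then no longer pass the filter. The ranges given below for a list when 1 library was left out have their lower end at an EE library. No called gene reversed its call under any of the 22 alternatives. Where a list had 0 calls in a direction, the number in that direction at an unadjusted limma p below 0.05 follows in parentheses. Coordinates are those of the Ensembl BDGP6.54 annotation. Some of the genes described share exonic bases with a neighbour, among them Nep1, svr, Ca-alpha1D, Ir85a, ppk17, kuz, Myc, Sesn, twe, rhea, Pal2, Sytalpha, CG13229, CG32547, Gr43a and Tsp29Fb, and their values are less certain, since the sources used here do not say whether counting used strand.

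Marker genes of EE cells and progenitors followed the labels. Fer1, AstC and pros, which mark EE cells, were called higher in EE libraries (log2 fold changes 5.3, 4.87 and 2.97), and the 6 progenitor markers analysed were all called lower (median -2.81, summed RPKM 70.1 to 133 in EE and 443 to 991 in progenitor libraries). AstC had 28593, 25876 and 23241 RPKM in EE libraries, and was present in progenitor libraries too, at 1475, 1074, 1262, 870.1 and 305. Progenitor replicates 1 to 3 and replicates 4 and 5 stood apart, with Pearson's r across genes of 0.946 to 0.969 within replicates 1 to 3, 0.981 between 4 and 5, and 0.914 to 0.943 across them. EE replicates correlated at 0.974 to 0.977. The implied depth was 31.0 to 42.4 M reads in EE and 24.1 to 26.9 M reads in progenitor libraries, at which 3 reads on a gene of 1 kb equal an RPKM of 0.0707 to 0.125. Of the 14 enterocyte markers tested, 2 were called higher (Amy-p and mex1; 1 to 4 when 1 library was left out, and 5 at an unadjusted p below 0.05) and 1 lower (Myo31DF), with a median log2 fold change of 1.53 and a summed RPKM of 951 to 1678 in EE and 365 to 552 in progenitor libraries. Of 7 neuron markers tested, 5 were higher (nSyb, Syn, brp, Gad1 and ChAT; 2 when any 1 EE library was left out), 3 having passed the filter only through EE libraries, whereas elav, a general neuronal marker, had 3.91, 3.53 and 5.66 RPKM in EE and 2.91, 1.92, 2.38, 7.72 and 4.35 in progenitor libraries and was not called. The summed RPKM of the neuron list was 101 to 109.9 in EE and 9.62 to 18.8 in progenitor libraries, that of the visceral muscle list 61.7 to 84.2 in EE and 78 to 132 in progenitor libraries, that of the hemocyte list 30.9 to 38.7 in EE and 26.7 to 65 in progenitor libraries, and that of the trachea list 1.9 to 6.02 in EE and 0.347 to 0.572 in progenitor libraries. Of 4 muscle genes tested 2 were called higher and 1 lower, of 3 hemocyte genes 0 (0 unadjusted) higher and 0 (0 unadjusted) lower, no trachea gene was tested, and the 1 fat body gene tested was higher (summed RPKM of the fat body list 13.3 to 21.8 in EE and 1.34 to 4.19 in progenitor libraries). The part of these other cells in the results below was not tested.

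**Figure D1:**
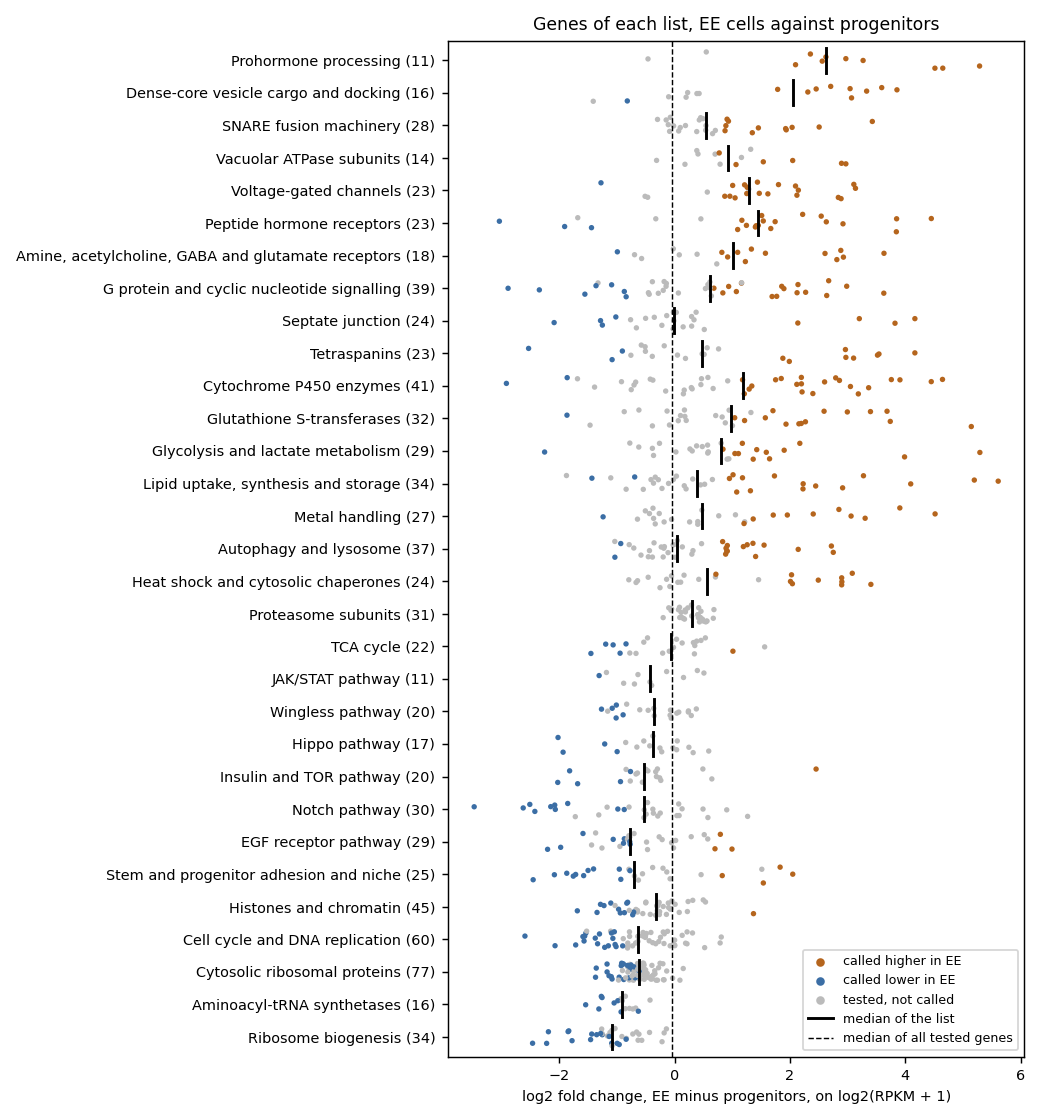
Log2 fold change of EE minus progenitors (horizontal axis, log2(RPKM + 1) scale) for every tested gene of 31 lists (rows, number of tested genes in parentheses), with genes called higher or lower by limma in colour, the median of each list as a bar and the median of all tested genes (-0.05) as a dashed line. Among the 31 lists drawn, hormone processing sits furthest to the right, with a median of 2.63, and ribosome biogenesis furthest to the left, with -1.09. Lists not drawn include the lysozymes, with a higher median of 3.65.

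Genes listed for peptide hormone processing, some neprilysin peptidases included, were higher in EE cells. Of 11 prohormone processing genes tested, 9 were called higher and 0 (1 unadjusted) lower (median 2.63), with 8 to 9 higher when 1 library was left out and 9 under the scaling without ribosomal proteins. 7B2, a chaperone of the prohormone convertase (FBgn0041707, chromosome 3R, 5376780 to 5377975), had 2499, 2749 and 3072 RPKM in EE and 104.1, 77.6, 125, 112 and 136 in progenitor libraries (4.65 ± 0.20 on the log2 scale, SE; limma adjusted p 3.94e-07). amon, the prohormone convertase itself (FBgn0023179, chromosome 3R, 26697697 to 26714159), had 211, 231 and 247 RPKM in EE and 33.6, 24.1, 37.3, 14.4 and 14.1 in progenitor libraries (3.27 ± 0.33, SE; limma adjusted p 3.35e-05). Progenitor replicates 4 and 5 held the lowest amon. The carboxypeptidase gene svr, which trims the cut peptides, had 280.4, 288 and 277 RPKM in EE and 56.3, 70.9, 52, 46.1 and 48.9 in progenitor libraries (2.36 ± 0.17, SE; limma adjusted p 4.41e-06). Pal2, a lyase of peptide amidation, was at 197 ± 37.5 in EE and 7.87 ± 2.6 in progenitor libraries (RPKM, SD, n = 3 and 5). Among the peptidases of the neprilysin family, Nep1 had the largest rise of the list, with 169.9, 123 and 114 RPKM in EE and 2.61, 3.08, 2.3, 2.72 and 1.68 in progenitor libraries (5.29 ± 0.20, SE; limma adjusted p 3.25e-07), while its relatives Nep2 and Nep3 rose by 2.97 and 2.56. Nep2 had 1.99, 20.1 and 15.7 RPKM in EE and 0.249, 0.762, 0.192, 0.118 and 0.251 in progenitor libraries, lowest among EE libraries in replicate 1. Nep1, Nep2 and Nep3 are among the 9 genes called higher, and whether they mature or break down hormones was not tested. The remaining calls were the convertase Fur1 and isoQC, a glutaminyl cyclase. Together the listed genes made up 0.627%, 0.591% and 0.698% of the summed RPKM in EE libraries and 0.0428%, 0.0398%, 0.0427%, 0.0405% and 0.0492% in progenitor libraries, and by reads 1.02 to 1.08% in EE and 0.102 to 0.139% in progenitor libraries.

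Genes that store and release dense-core vesicles were higher too. Of 16 genes for vesicle cargo and docking, 9 were higher and 1 lower (median 2.05; 7 to 9 higher when 1 library was left out), and 2 of the 16 passed the filter only through EE libraries. IA-2, a transmembrane protein of dense-core vesicles (FBgn0031294, chromosome 2L, 1008378 to 1048053), had 1506, 1465 and 1859.8 RPKM in EE and 97.9, 91, 124, 99.1 and 144 in progenitor libraries (3.86 ± 0.19, SE; limma adjusted p 7.45e-07). Rab3, a vesicle GTPase, had 77.5, 88.1 and 77.9 RPKM in EE and 8.19, 6.96, 10.2, 11.6 and 7.62 in progenitor libraries (3.07 ± 0.19, SE; limma adjusted p 1.78e-06). In both cases the lowest EE library was several times the highest progenitor library. Its relatives and effectors moved in the same direction: Rph (rabphilin) by 3.33, Rim by 2.71, Rab26 by 2.31 and Rab3-GEF, an exchange factor of Rab3, by 1.79. Synaptotagmins, the calcium sensors of exocytosis, were called higher as well. Sytalpha averaged 112 ± 11.9 RPKM in EE and 8.78 ± 3.5 in progenitor libraries (SD, n = 3 and 5), Sytbeta 100.4 ± 5.64 in EE and 11.5 ± 2.51 in progenitor libraries, and Syt7 15.3 ± 1.43 in EE and 2.0 ± 0.46 in progenitor libraries. Arl8, a GTPase of lysosome transport, was lower (mean RPKM 27.4 against 49 in EE against progenitor libraries, -0.82 on the log2 scale).

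Membrane fusion genes were higher in part. Of 28 SNARE fusion genes, 11 were higher and 0 (0 unadjusted) lower (7 to 13 higher when 1 library was left out; median 0.54, turning to -0.04 under the scaling without ribosomal proteins, where all genes were at -0.55). The vesicle SNARE nSyb had 67.6, 69.2 and 68.1 RPKM in EE and 6.0, 4.54, 6.55, 5.99 and 4.35 in progenitor libraries (3.43 ± 0.17, SE; limma adjusted p 7.45e-07). Syt1 and cpx (complexin), which gate fusion at synapses, rose by 2.51 and 2.04, and the Golgi and endosomal syntaxins Syx6 and Syx16 by 1.94 and 1.93. Snap25, the neuronal target SNARE, was called at low levels, 1.26, 1.69 and 1.55 RPKM in EE and 0.374, 0.397, 0.28, 0.325 and 0.345 in progenitor libraries. Subunits of the vacuolar ATPase, the proton pump that acidifies secretory vesicles and lysosomes, were higher for 6 of 14 and lower for 0 (0 unadjusted) (median 0.93; 3 to 7 higher when 1 library was left out). The largest changes were in Vha16-4 and Vha68-1. Vha16-4 had 6.96, 10.2 and 8.76 RPKM in EE and 0.0655, 0.145, 0.332, 0.523 and 0.0731 in progenitor libraries, and Vha68-1 had 53.7, 65.9 and 46 RPKM in EE and 6.66, 5.31, 5.95, 7.82 and 6.86 in progenitor libraries. VhaAC45RP rose by 2.05 and Vha14-1 by 1.54.

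The early secretory pathway stood close to all genes. Of 46 genes of ER translocation and folding, 8 were higher and 3 lower (4 to 8 higher when 1 library was left out; median 0.10, -0.16 after quantile normalization and -0.49 under the scaling without ribosomal proteins). Ero1L, the oxidase that drives disulfide formation, had 42.5, 50.3 and 51.3 RPKM in EE and 10.1, 8.06, 7.37, 11.7 and 9.14 in progenitor libraries (2.27 ± 0.18, SE; limma adjusted p 7.65e-06). The signal peptidase subunits twr and Spase22-23 rose by 1.59 and 1.58, and crc, an ATF4-type transcription factor, fell by 0.94 on the log2 scale. Of 30 COPII and COPI genes only Rab2 was higher (0.99), and Arf1 and Rab11 were lower (-0.85 and -0.98). The median of that list was 0.09, turning to -0.09 after quantile normalization and -0.48 under the scaling without ribosomal proteins.

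**Figure D2:**
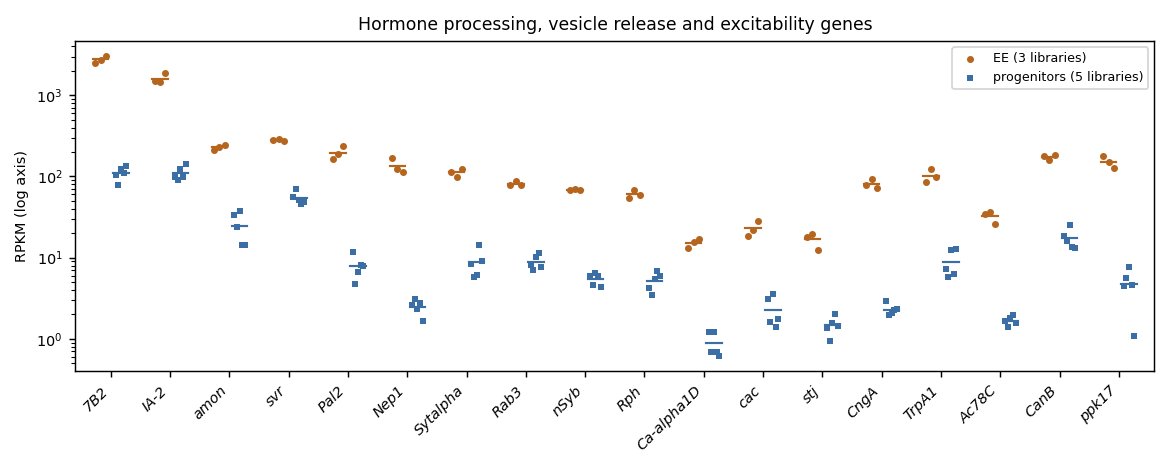
RPKM on a log axis of 18 genes of hormone processing, vesicle release and excitability in each EE library (circles, left of each pair, n = 3) and progenitor library (squares, right, n = 5), with the group means as lines. All 18 were taken from the genes called higher, so the gap between the groups is part of that choice. 7B2 and IA-2 stand highest in both groups.

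Genes of electrical excitability were higher in EE libraries. Of 23 voltage-gated channel genes tested, 18 were higher and 1 lower (median 1.29; 10 to 19 higher when 1 library was left out), and 6 of the 23 passed the filter only through the EE libraries. The 4 leading rises were calcium channels or their partners except Teh2, a sodium channel accessory subunit (3.14). Ca-alpha1D, an L-type calcium channel (FBgn0001991, chromosome 2L, 16165831 to 16190540), had 13, 15.5 and 17.1 RPKM in EE and 1.21, 0.688, 1.22, 0.697 and 0.613 in progenitor libraries (3.11 ± 0.18, SE; limma adjusted p 1.40e-06). cac, the channel of presynaptic release, had 18.4, 21.9 and 28.3 RPKM in EE and 3.12, 1.61, 3.58, 1.39 and 1.74 in progenitor libraries (2.89 ± 0.26, SE; limma adjusted p 1.77e-05). The accessory subunit stj rose by 2.84. NaCP60E, a sodium channel gene, was the one called lower, at 2.06, 1.33 and 1.37 RPKM in EE and 5.44, 7.52, 3.72, 4.83 and 5.09 in progenitor libraries.

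Channels that are not opened by voltage changed in both directions. Of 16 such genes 5 were higher and 4 lower (4 to 5 higher and 0 to 4 lower when 1 library was left out; median -0.01, 0.01 after median-of-ratios scaling). CngA, a subunit of cyclic nucleotide-gated channels (FBgn0261612, chromosome 2R, 16243145 to 16259805), had 77.8, 94 and 71.9 RPKM in EE and 2.89, 1.94, 2.09, 2.24 and 2.33 in progenitor libraries (4.64 ± 0.16, SE; limma adjusted p 3.25e-07), and its partner CngB rose by 3.17. TrpA1, a channel for heat and reactive chemicals (FBgn0035934, chromosome 3L, 8894404 to 8905200), had 86, 122 and 99.2 RPKM in EE and 7.16, 5.79, 12.5, 6.26 and 12.8 in progenitor libraries (3.44 ± 0.28, SE; limma adjusted p 9.41e-06). The potassium leak channel sand rose by 2.95. The genes called lower were Stim, Orai, Best1 (-1.26), a chloride channel, and pain (-1.49), a TRP channel of heat sensing. Stim and Orai, the sensor and the pore of store-operated calcium entry, act together. Stim had 24.4, 21.5 and 22.6 RPKM in EE and 38.9, 46.4, 38.1, 34.6 and 37.4 in progenitor libraries, and Orai 2.58, 3.07 and 2.48 RPKM in EE and 5.31, 9.17, 5.13, 6.69 and 7.76 in progenitor libraries. Itpr, the channel that releases calcium from the ER, was lower as well (-0.90), as was the sodium-calcium exchanger Calx (-0.98). Among calcium handling genes (5 of 18 higher, 4 lower, median 0.01, -0.13 after quantile normalization; 3 to 5 higher and 0 to 4 lower when 1 library was left out), CanB, a regulatory subunit of calcineurin, changed most, with 179, 161 and 182 RPKM in EE and 18.5, 15.9, 25.3, 13.4 and 13.3 in progenitor libraries (3.3 ± 0.22, SE; limma adjusted p 2.85e-06). The mitochondrial calcium uniporter genes MCU and EMRE rose by 0.91 and 1.27.

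G protein and cyclic nucleotide genes changed in both directions, with 16 of 39 higher and 7 lower (median 0.61; 10 to 17 higher and 3 to 7 lower when 1 library was left out). Ac78C, an adenylyl cyclase, had 34.6, 36.1 and 26 RPKM in EE and 1.64, 1.4, 1.79, 1.94 and 1.57 in progenitor libraries (3.63 ± 0.17, SE; limma adjusted p 5.79e-07). Ac76E, another adenylyl cyclase, had 1.75, 1.98 and 2.13 RPKM in EE and 13.1, 16.1, 7.27, 47.5 and 49.6 in progenitor libraries (-2.89 ± 0.56, SE; limma adjusted p 0.00214), with progenitor replicates 4 and 5 well above replicates 1 to 3. The G alpha subunit Galphaf rose by 2.64 and Galphai fell by 2.34 on the log2 scale. Galphai had 17.9, 9.69 and 8.26 RPKM in EE and 71.9, 66.9, 45.8, 75.5 and 53 in progenitor libraries. Gbeta5, Gycalpha99B (a soluble guanylyl cyclase subunit) and Pka-R2 (a regulatory subunit of protein kinase A) rose by 2.67, 2.99 and 2.27. Crtc, a coactivator of CREB, and krz, a beta-arrestin gene, fell by 1.55 and 1.36 on the log2 scale.

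Receptor genes for peptides and transmitters were higher in part, and several were measured only because the EE libraries had passed the filter. Of 23 peptide hormone receptor genes tested, of 46 in the table, 17 were higher and 3 lower (median 1.45; 6 to 17 higher when 1 library was left out), and 9 passed the filter only through EE and 2 only through progenitor libraries. The largest rises were CG30340, with 66.4, 105 and 110.0 RPKM in EE and 5.18, 4.71, 3.85, 2.23 and 1.45 in progenitor libraries (4.45 ± 0.33, SE; limma adjusted p 5.20e-06), followed by CG13229 and CG32547 (log2 fold changes 3.85 and 3.85). The roles of these receptors are not described here. The trissin receptor TrissinR rose by 2.92. NPFR, the receptor of the gut hormone NPF, had 29.1, 28 and 32.5 RPKM in EE and 6.16, 3.36, 6.11, 4.36 and 2.48 in progenitor libraries (2.54), and ETHR, the ecdysis-triggering hormone receptor, 6.3, 5.87 and 6.08 RPKM in EE and 0.231, 0.073, 0.108, 0.247 and 0.0643 in progenitor libraries (2.63). AstA-R1, an allatostatin A receptor, was lower, at 0.235, 0.226 and 0.186 RPKM in EE and 6.83, 7.75, 2.63, 29.8 and 11.9 in progenitor libraries, as were the orphan receptors moody (-1.91) and Tre1 (-1.44). Progenitor replicate 4 stood above the other progenitor libraries for AstA-R1.

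For amines, acetylcholine, GABA and glutamate, 11 of 18 receptor genes were higher and 1 lower (median 1.01), with 5 passing the filter only through EE libraries and 3 to 12 higher when 1 library was left out. mAChR-C, a muscarinic receptor, had 26.1, 27.8 and 21.6 RPKM in EE and 2.01, 1.86, 1.48, 0.457 and 0.306 in progenitor libraries (3.63 ± 0.30, SE; limma adjusted p 1.11e-05). The tyramine receptor TyrRII, the nicotinic subunit nAChRalpha5 and the serotonin receptor 5-HT1A rose by 2.93, 2.88 and 2.82, and the nicotinic subunit nAChRalpha6 was lower (-0.99). Of 5 tested genes for transmitter synthesis and loading, 4 were higher and 0 (0 unadjusted) lower (1 to 4 higher when 1 library was left out), and 3 had passed the filter only through EE libraries. The vesicular transporter prt had 69.5, 65.4 and 84.8 RPKM in EE and 8.02, 5.94, 8.34, 6.05 and 8.9 in progenitor libraries (3.14 ± 0.18, SE; limma adjusted p 1.52e-06). Gad1 (GABA synthesis), ChAT (acetylcholine synthesis) and Tbh (octopamine synthesis) were called at low levels, with mean RPKM in EE against progenitor libraries of 4.42 against 0.273 for Gad1, 4.17 against 0.244 for ChAT and 4.61 against 0.499 for Tbh.

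Chemosensory gene families were mostly below the filter, with a few members at clear levels in EE cells. Of 60 gustatory receptor genes 7 were tested and 5 were higher, and 3 of the 7 passed the filter only through EE libraries. Gr89a had 25.8, 26 and 21.9 RPKM in EE and 5.49, 13.3, 4.46, 13.3 and 11.2 in progenitor libraries. Gr28b had 2.71, 3.53 and 4.18 RPKM in EE and 0.0784, 0.0386, 0.0353, 0.0174 and 0.0194 in progenitor libraries. Gr43a, a fructose receptor, had 3.08, 2.93 and 2.77 RPKM in EE and 0.754, 0.621, 0.246, 1.19 and 1.49 in progenitor libraries. Gr2a and Gr64f rose by 1.47 and 1.08 at levels near the filter, with mean RPKM of 2.05 and 1.23 in EE libraries. Without EE replicate 1, 2 or 3, between 3 and 4 gustatory receptors were tested and none was called by limma. Of 66 ionotropic receptors 4 were tested, of which 1 passed the filter only through EE and 1 only through progenitor libraries. Ir85a had 27.5, 38.2 and 25.4 RPKM in EE and 1.89, 1.77, 0.968, 0.052 and 0.155 in progenitor libraries (4.1 ± 0.37, SE; limma adjusted p 1.67e-05), Ir21a rose by 1.36 and Ir76a fell by 1.43 on the log2 scale. The pickpocket sodium channel ppk17 (FBgn0032602, chromosome 2L, 16758184 to 16760554) had 177, 151 and 127 RPKM in EE and 4.49, 5.67, 7.62, 4.64 and 1.07 in progenitor libraries (4.87 ± 0.40, SE; limma adjusted p 9.79e-06), and ppk13 rose by 2.09. Of 108 odorant receptors and binding proteins 6 were tested, and the binding proteins Obp69a and Obp44a were higher (2.22 and 1.41).

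Of 24 septate junction genes 4 were higher and 4 lower (median -0.01, 0.01 after median-of-ratios scaling), near or below the 20.1% higher and 14.5% lower of all genes. The genes that rose were bark, of tricellular junctions (2.14), and the 3 components of the smooth septate junction of the gut. Tsp2A had 804, 711 and 529 RPKM in EE and 44.4, 68, 10.8, 66.6 and 28.4 in progenitor libraries (4.17 ± 0.53, SE; limma adjusted p 0.000159), Ssk had 2679, 2191 and 2218 RPKM in EE and 172, 315, 84.3, 261 and 103 in progenitor libraries (3.82), and mesh had 204, 149 and 131 RPKM in EE and 23.4, 41.4, 8.55, 16 and 8.25 in progenitor libraries (3.2). Progenitor replicate 3 was lowest in its group for Tsp2A and Ssk. Those that fell, nrv2 (-2.09), l(2)gl (-1.28), Nrx-IV (-1.25) and Nrg (-1.02), are known from the pleated junctions of ectodermal epithelia or from polarity. Enterocytes also carry smooth septate junctions, and the enterocyte marker values above stand beside this result. Their part in it was not tested.

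Genes of contact with the basement membrane were lower. In the list of progenitor adhesion and niche genes 11 of 25 were lower and 4 higher (median -0.69; 5 to 10 lower when 1 library was left out). LanA, a laminin chain (FBgn0002526, chromosome 3L, 6203831 to 6218022), had 11.9, 8.45 and 7.74 RPKM in EE and 42.3, 41.6, 43.2, 39.8 and 44.8 in progenitor libraries (-2.08 ± 0.17, SE; limma adjusted p 8.21e-06). wb, the other laminin alpha chain, had 0.458, 0.477 and 0.292 RPKM in EE and 8.4, 4.11, 8.57, 5.08 and 8.62 in progenitor libraries (-2.45 ± 0.25, SE; limma adjusted p 3.43e-05), and LanB1 and LanB2 fell by 1.87 and 1.58 on the log2 scale. The talin gene rhea, which ties integrins to actin, had 6.26, 5.54 and 4.69 RPKM in EE and 18.9, 19.5, 30.9, 17.9 and 19.2 in progenitor libraries (-1.75). Other matrix genes were higher, Ndg (nidogen) by 2.05, SPARC by 1.83 and the protease Mmp2 by 1.54, with SPARC at 2.54, 12.8 and 6.83 RPKM in the EE libraries, lowest in replicate 1.

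Tetraspanins, small membrane proteins that organise others, changed in both directions, with 8 of 23 higher and 3 lower (median 0.48, turning to -0.08 under the scaling without ribosomal proteins). Beside Tsp2A, Tsp42Eq had 338, 329.8 and 333 RPKM in EE and 23.1, 47.7, 23, 28.6 and 22.2 in progenitor libraries, Tsp29Fb had 644, 535 and 771 RPKM in EE and 42.1, 56.9, 33.5, 94.8 and 66.5 in progenitor libraries, and Tsp42Er rose by 3.11. Tsp42Ee fell, at 86.7, 72.8 and 55.7 RPKM in EE and 437, 522, 210.0, 542 and 459.9 in progenitor libraries (-2.53 ± 0.31, SE; limma adjusted p 0.000128). Of 12 brush border and apical cytoskeleton genes, mex1 and aru were higher (1.59 and 1.9) and Myo31DF and Fim lower (-1.66 and -1.66), 16.7% each way and so near the shares of all genes.

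Some genes of the Notch and EGF receptor pathways were lower in EE libraries. Of 30 Notch pathway genes, 10 were lower and 0 (2 unadjusted) higher (median -0.53; 7 to 10 lower when 1 library was left out). The receptor N (FBgn0004647, chromosome X, 3134870 to 3172221) had 5.96, 2.49 and 4.2 RPKM in EE and 24, 22.7, 17.5, 15.8 and 21.1 in progenitor libraries (-2.07 ± 0.24, SE; limma adjusted p 9.51e-05). kuz, the protease that cleaves it, had 5.25, 3.27 and 6.11 RPKM in EE and 31.5, 18.6, 23.1, 52.3 and 66.9 in progenitor libraries (-2.62), and O-fut1, which glycosylates it, 2.44, 2.75 and 2.32 RPKM in EE and 17.7, 17.1, 13.3, 26.7 and 22.4 in progenitor libraries (-2.51). Its target E(spl)m3-HLH had 22.6, 15.9 and 14.8 RPKM in EE and 308, 206, 472, 71.4 and 165 in progenitor libraries (-3.47 ± 0.51, SE; limma adjusted p 0.000399). E(spl)malpha-BFM, E(spl)mbeta-HLH and klu, further targets, fell by 2.42, 2.15 and 2.08 on the log2 scale. E(spl)m3-HLH, E(spl)mbeta-HLH and klu also belong to the progenitor markers above, so their falls are not separate from that check of the labels. Among progenitor libraries replicate 4 was lowest for E(spl)m3-HLH.

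In the EGF receptor pathway 8 of 29 genes were lower and 3 higher (median -0.77; 2 to 12 lower when 1 library was left out). The receptor Egfr had 1.15, 1.09 and 1.1 RPKM in EE and 7.32, 9.06, 4.33, 6.24 and 11.2 in progenitor libraries (-1.97 ± 0.25, SE; limma adjusted p 0.00017). ed, a cell adhesion molecule that dampens the pathway, aos, a secreted inhibitor, and drk, the adaptor, fell by 2.2, 1.59 and 1.06 on the log2 scale, while kek1, Dsor1 (the MAP kinase kinase) and csw rose by 1.0, 0.80 and 0.70. Under the scaling without ribosomal protein genes none of these last 3 was called, at 0.64 for kek1, 0.24 for Dsor1 and 0.19 for csw (limma adjusted p 0.0416, 0.32 and 0.39). In the insulin and TOR list 5 of 20 were lower and 1 higher (median -0.53; 3 to 6 lower when 1 library was left out). The growth regulator Myc had 15.2, 7.25 and 18 RPKM in EE and 97.8, 34.7, 47, 40.5 and 74.1 in progenitor libraries (-2.02 ± 0.38, SE; limma adjusted p 0.00184), REPTOR and Akt fell by 1.82 and 1.68 on the log2 scale, and Sesn (sestrin, an inhibitor of TOR) had 21.7, 25.8 and 23.2 RPKM in EE and 3.91, 3.22, 5.95, 2.88 and 2.18 in progenitor libraries (2.46). Of 20 Wingless genes 5 were lower and 0 (0 unadjusted) higher (median -0.35; 3 to 7 lower when 1 library was left out), led by the coreceptor arr (-1.27) and pan, the TCF factor (-1.08). Of 17 Hippo genes 4 were lower and 0 (0 unadjusted) higher (median -0.38). Tgi, a repressor that binds the factor Scalloped, had 1.04, 1.09 and 1.04 RPKM in EE and 10.1, 4.72, 7.84, 6.98 and 7.94 in progenitor libraries (-2.02 ± 0.21, SE; limma adjusted p 4.75e-05), and kibra fell by 1.93 on the log2 scale. The JAK/STAT list had 1 lower gene of 11, ken (-1.31; 0 to 3 when 1 library was left out), a share below the 14.5% of all genes. In the BMP and activin list, 3 of 17 were lower (Mad, tkv and put; 0 to 3 when 1 library was left out) and 2 higher, shares near or below those of all genes. The genes called higher were cv-2, a secreted BMP binding protein, at 44.3, 50.3 and 31.3 RPKM in EE and 5.22, 3.7, 6.99, 8.16 and 7.0 in progenitor libraries, and the ligand Actbeta (1.56).

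**Figure D3:**
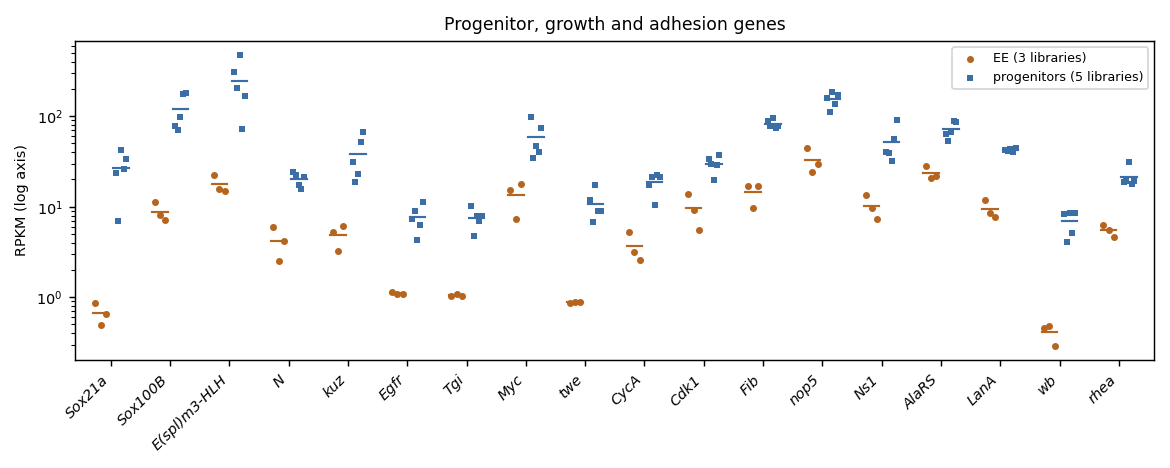
RPKM on a log axis of 18 progenitor, growth and adhesion genes in each EE library (circles, left of each pair, n = 3) and progenitor library (squares, right, n = 5), with group means as lines. All 18 were taken from the genes called lower, so the gap between the groups is part of that choice. Sox21a lies between 0.496 and 0.856 in EE and between 6.93 and 42.3 in progenitor libraries.

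Genes of cell division were lower in EE cells. Of 60 cell cycle and replication genes, 18 were lower and 0 (1 unadjusted) higher (median -0.63; 6 to 26 lower when 1 library was left out), with 4 passing the filter only through progenitor libraries. twe, a Cdc25-type phosphatase, had 0.86, 0.893 and 0.882 RPKM in EE and 11.9, 6.79, 17.5, 8.97 and 9.05 in progenitor libraries (-2.59 ± 0.26, SE; limma adjusted p 3.51e-05). CycA had 5.27, 3.13 and 2.56 RPKM in EE and 17.4, 21.2, 10.5, 22.5 and 21.4 in progenitor libraries (-2.07 ± 0.28, SE; limma adjusted p 0.000239) and Cdk1 14, 9.29 and 5.59 RPKM in EE and 34, 29.4, 19.8, 29.1 and 37.1 in progenitor libraries (-1.59). The cytokinesis regulators pbl and tum fell by 1.71 and 1.57 on the log2 scale. EE replicate 1 was the highest of its group for CycA and Cdk1.

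Genes that build ribosomes were lower. Of the 34 ribosome biogenesis genes 16 were lower and 0 (0 unadjusted) higher (median -1.09; 7 to 20 lower when 1 library was left out). Fib, the fibrillarin methyltransferase of the nucleolus (FBgn0003062, chromosome 2R, 23072909 to 23074725), had 17, 9.7 and 17 RPKM in EE and 87.9, 78.7, 96.5, 73.5 and 77.2 in progenitor libraries (-2.46 ± 0.21, SE; limma adjusted p 1.14e-05). nop5, of the same complex, had 44.1, 24.4 and 29.7 RPKM in EE and 160.3, 112, 188, 138 and 171 in progenitor libraries (-2.22 ± 0.23, SE; limma adjusted p 4.94e-05), and Ns1 (a nucleolar GTPase) and Surf6 fell by 2.19 and 1.85 on the log2 scale. Small nucleolar RNA genes, the guides for rRNA modification, were lower for 21 and higher for 1 of 78 tested (median -1.0; 12 to 27 lower when 1 library was left out), but 25 of the 78 passed the filter only through progenitor libraries. How well such short RNAs were recovered was not tested. Of 77 cytosolic ribosomal protein genes 22 were lower and 0 (0 unadjusted) higher (median -0.62; 9 to 27 lower when 1 library was left out), led by RpS3A (1572, 1322 and 1807 RPKM in EE and 3795, 4907, 4291, 3758 and 3483 in progenitor libraries) and RpL34a (-1.36). Their sum was 22.7%, 20.2% and 22.5% of all RPKM in EE and 37.5%, 38%, 47.8%, 37.9% and 36.1% in progenitor libraries, and of the reads assigned to genes 14 to 15.2% in EE and 23.8 to 35.2% in progenitor libraries. As these genes take so large a share, they also set part of the scale on which every other gene is measured. The scaling without them leaves that share out but rests on the other abundant genes, AstC among them. It divided EE libraries by 1.17 to 1.39 and progenitor libraries by 0.793 to 0.897, against 0.912 to 1.07 for median-of-ratios scaling. Which scaling is nearer the truth was not tested.

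Aminoacyl-tRNA synthetases were lower for 8 of 16 and higher for 0 (0 unadjusted) (median -0.92; 3 to 12 lower when 1 library was left out, and 5 without progenitor replicate 1 or 5), led by AlaRS (28.1, 21 and 21.9 RPKM in EE and 63, 52.8, 66.2, 89.6 and 86.1 in progenitor libraries, -1.54 ± 0.21, SE; limma adjusted p 0.000252) and ThrRS (-1.31). Of 7 subunits of the CCT chaperonin, which folds actin and tubulin, 4 were lower (CCT6, CCT2, CCT7 and CCT1, by 1.06 to 0.63 on the log2 scale; 1 to 5 when 1 library was left out). Of 44 translation factors 8 were lower and 2 higher (median -0.43; 2 to 14 lower when 1 library was left out, the highest without progenitor replicate 3), against 14.5% lower of all genes. eIF3j fell by 1.48 on the log2 scale, while eEF1alpha2, the tissue-restricted form of the elongation factor, had 45.8, 80.7 and 54.5 RPKM in EE and 3.37, 2.98, 3.37, 2.77 and 6.36 in progenitor libraries (3.69 ± 0.26, SE; limma adjusted p 4.40e-06). Of 70 mitochondrial ribosomal protein genes 1 was lower and 2 were higher (median -0.05). Nuclear pore genes were lower for 5 of 18 and higher for 0 (0 unadjusted) (median -0.46; 0 to 6 lower when 1 library was left out, none without EE replicate 2). Of 45 histone and chromatin genes 12 were lower and 1 higher (median -0.33; 5 to 16 lower when 1 library was left out), among them ash2 (-1.69), dom (-1.34), esc (-1.28) and Caf1-55 (-1.22), whereas the replacement histone gene His3.3A was higher (114, 139 and 123 RPKM in EE and 62.1, 49, 33.3, 61.3 and 39.7 in progenitor libraries).

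Genes of sugar metabolism were higher in several branches. Of 29 glycolysis and lactate genes 12 were higher and 1 lower (median 0.81; 8 to 15 higher when 1 library was left out). sut2, a sugar transporter (FBgn0028562, chromosome 2R, 8087396 to 8089297), had 104.5, 91.2 and 101 RPKM in EE and 1.66, 1.72, 0.866, 2.42 and 1.29 in progenitor libraries (5.3 ± 0.21, SE; limma adjusted p 3.25e-07), whereas the trehalose transporter Tret1-1 had 8.28, 9.13 and 7.34 RPKM in EE and 33.1, 36, 27, 94.2 and 47.7 in progenitor libraries (-2.25 ± 0.35, SE; limma adjusted p 0.000598). Pepck2 and fbp, enzymes of gluconeogenesis, rose by 3.99 and 1.9, and the mitochondrial pyruvate carrier gene Mpc1 had 143, 106 and 118 RPKM in EE and 26.3, 26.6, 28.4, 30.4 and 20.1 in progenitor libraries (2.17). In the TCA cycle 5 of 22 were lower (mAcon1, Idh3g, ScsbetaA, Ogdh and Men-b) and 1, Got2, higher (median -0.05; 2 to 5 lower when 1 library was left out). Nuclear genes of complex I were higher for 4 of 27 and lower for 0 (1 unadjusted) (0 to 5 higher when 1 library was left out; median 0.50, turning to -0.09 under the scaling without ribosomal proteins), and those of complexes III, IV and ATP synthase for 5 of 28 with 0 (1 unadjusted) lower (1 to 5 higher when 1 library was left out; median 0.28, -0.09 after quantile normalization and -0.35 under that scaling), shares near or below the 20.1% of all genes. All 37 mitochondrially encoded features were listed at 0 in these libraries and are not described. Of 31 proteasome genes limma called 0 (8 unadjusted) higher and 0 (0 unadjusted) lower (median 0.30, -0.29 under that scaling), and the alternatives called at most 3 higher or 1 lower.

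Lipid, metal and detoxification genes included some of the largest changes. Of 34 lipid genes 14 were higher and 2 lower (9 to 14 higher when 1 library was left out; median 0.38, -0.17 under the scaling without ribosomal proteins). Npc2b, a sterol-binding secreted protein (FBgn0038198, chromosome 3R, 14089517 to 14092425), had 4113, 4662 and 2176 RPKM in EE and 72.4, 106, 19, 175 and 64 in progenitor libraries (5.61 ± 0.60, SE; limma adjusted p 5.21e-05). The lipocalin NLaz had 937, 2199 and 1996 RPKM in EE and 35.6, 34.3, 54.2, 48 and 44.2 in progenitor libraries (5.2 ± 0.29, SE; limma adjusted p 1.10e-06), and Fa2h, a fatty acid hydroxylase, rose by 4.1. Of 27 metal handling genes 10 were higher and 1 lower (median 0.47, -0.05 under that scaling). The metallothionein MtnB had 676, 791 and 458 RPKM in EE and 31.4, 24.1, 44.5, 11.9 and 31 in progenitor libraries (4.52 ± 0.37, SE; limma adjusted p 9.72e-06), and MtnE, MtnC and MtnD rose by 3.91, 3.31 and 3.06. The zinc transporter Zip71B was the one called lower (-1.24).

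Cytochrome P450 genes were higher for 21 of 41 and lower for 2 (median 1.18; 14 to 21 higher when 1 library was left out), with 4 passing the filter only through EE libraries. Cyp9h1 had 185, 165 and 230.1 RPKM in EE and 8.71, 6.19, 13.5, 5.28 and 7.23 in progenitor libraries (4.45 ± 0.27, SE; limma adjusted p 1.75e-06), Cyp28a5 rose by 4.65, and Cyp4p2 had 3.74, 3.66 and 5.62 RPKM in EE and 29.6, 34.4, 25.2, 52.2 and 64.9 in progenitor libraries (-2.91 ± 0.31, SE; limma adjusted p 5.11e-05). Glutathione S-transferases were higher for 14 of 32 and lower for 1 (median 0.98). Members of the GstD cluster moved apart. GstD8 had 98.4, 103.9 and 69.7 RPKM in EE and 2.48, 2.29, 1.26, 1.42 and 0.719 in progenitor libraries, GstD7 had 20.7, 21.6 and 23.1 RPKM in EE and 0.933, 0.763, 0.747, 0.834 and 0.603 in progenitor libraries, and GstD3 had 52.8, 46.6 and 31.4 RPKM in EE and 218, 132, 96.4, 234 and 149.9 in progenitor libraries. These copies are alike, so reads may be split between them. Of 19 UDP-glycosyltransferases 7 were higher and 5 lower (4 to 7 higher when 1 library was left out; median 0.23, -0.17 under the scaling without ribosomal proteins). Ugt37D1 had 134, 127 and 149 RPKM in EE and 11.7, 11.1, 8.07, 37.6 and 7.92 in progenitor libraries, highest among progenitors in replicate 4. Ugt302K1 had 2.57, 1.2 and 1.36 RPKM in EE and 14.8, 24.2, 15.3, 22.6 and 19.9 in progenitor libraries.

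Lysosome genes were partly higher. In the autophagy and lysosome list 14 of 37 were higher and 2 lower (7 to 13 higher when 1 library was left out; median 0.05, -0.09 after quantile normalization and -0.34 under the scaling without ribosomal proteins), led by the cathepsin gene CtsB (1316, 1727 and 1617 RPKM in EE and 235, 246, 173, 242 and 255 in progenitor libraries, 2.75 ± 0.18, SE; limma adjusted p 2.39e-06) and by Cln7 (2.72). Rab7, of late endosomes, and Atg13, an activator of autophagy, were lower (-0.93 and -1.03). Heat shock genes were higher for 10 of 24 and lower for 0 (3 unadjusted) (median 0.57; 3 to 10 higher when 1 library was left out). Hsp26 had 577, 959.9 and 1124 RPKM in EE and 31.7, 33.9, 264, 113 and 98.4 in progenitor libraries (3.41 ± 0.64, SE; limma adjusted p 0.00171), and Hsp23 had 1308, 2345 and 2515 RPKM in EE and 73.4, 160.4, 863, 214 and 309 in progenitor libraries (3.08 ± 0.65, SE; limma adjusted p 0.00341). Progenitor replicate 3 stood above the other progenitor libraries for both, and EE replicate 1 below the other EE libraries. The list made up 0.716%, 0.926% and 1.04% of the summed RPKM in EE and 0.411%, 0.407%, 0.757%, 0.509% and 0.587% in progenitor libraries. By reads it made up 0.919 to 1.18% in EE and 0.762 to 1.34% in progenitor libraries. The groups overlapped on both measures.

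**Figure D4:**
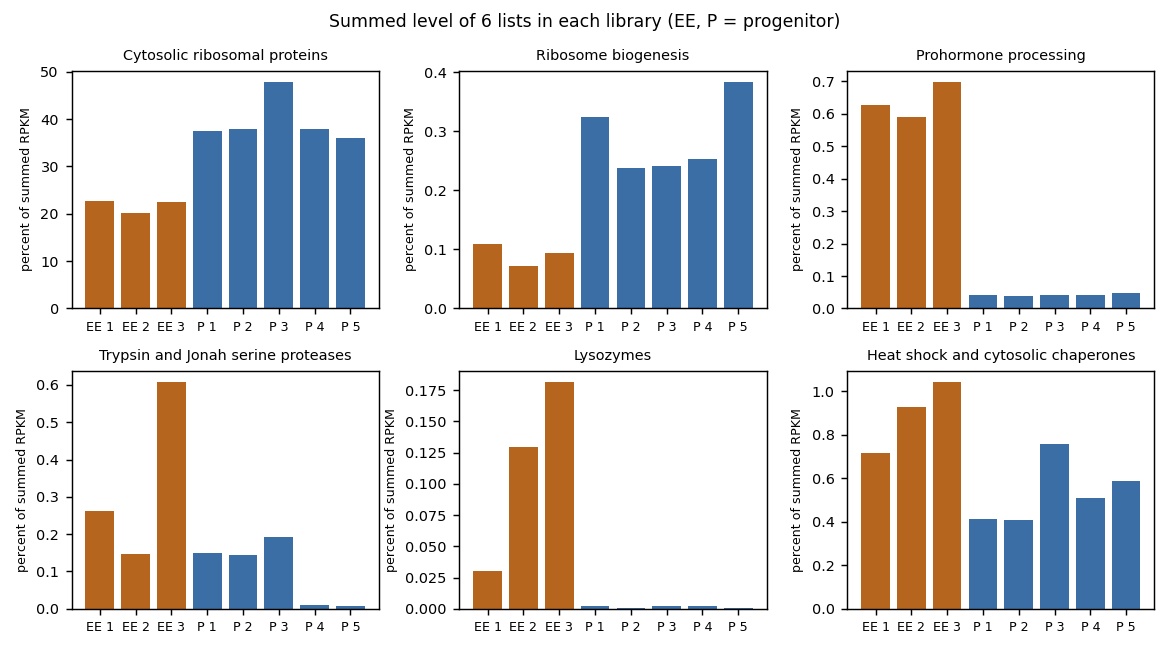
Percent of the summed RPKM (vertical axis of each panel, starting at 0) taken by 6 lists in EE libraries 1 to 3 and progenitor (P) libraries 1 to 5. Ribosomal proteins take 20.2 to 22.7% in EE and 36.1 to 47.8% in progenitor libraries, and the trypsin and Jonah proteases are near 0 in progenitor libraries 4 and 5 but not in 1 to 3.

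Several maltase genes and most lysozyme genes were higher in EE libraries, with wide variation between libraries. Trypsin and Jonah proteases, the digestive serine proteases of enterocytes, were called higher for 4 of 23 and lower for 0 (0 unadjusted) (median 1.91; 1 to 8 higher when 1 library was left out), a share below the 20.1% of all genes. Their sum was 0.262%, 0.146% and 0.607% of all RPKM in EE and 0.148%, 0.144%, 0.193%, 0.00878% and 0.00736% in progenitor libraries, so that EE replicate 2 overlapped progenitor replicates 1 to 3. Against progenitor replicates 1 to 3 alone 4 were higher with a median of 0.89, and against replicates 4 and 5 alone 19 of 22 tested were higher with a median of 4.05. Jon99Ciii had 142, 203 and 529.8 RPKM in EE and 24.4, 17.7, 51.1, 0.0897 and 0.435 in progenitor libraries (4.91 ± 1.26, SE; limma adjusted p 0.00945). Of 13 amylase and maltase genes 6 were higher and 0 (0 unadjusted) lower (median 2.1; 2 to 7 higher when 1 library was left out). Mal-A3, a maltase, had 307, 304 and 248 RPKM in EE and 2.32, 2.66, 2.01, 2.21 and 0.578 in progenitor libraries (6.65 ± 0.27, SE; limma adjusted p 3.65e-07). Mal-A2 had 365, 253 and 273 RPKM in EE and 10.1, 12.3, 7.01, 6.34 and 5.28 in progenitor libraries, whereas Mal-B1 had 6.67, 194 and 115.2 RPKM in EE and 0.123, 0.0227, 0.0208, 0.0614 and 0.0229 in progenitor libraries, with EE replicate 1 far below the other EE libraries. The part of enterocyte RNA in these genes was not tested. Reads from near-identical members of these families cannot be assigned with certainty.

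Of 7 lysozyme genes tested 6 were higher, and 4 of the 7 passed the filter only through EE libraries. Their sum was 0.0305%, 0.13% and 0.181% of all RPKM in EE and 0.00186%, 0.000982%, 0.00191%, 0.00201% and 0.000615% in progenitor libraries, lowest among EE libraries in replicate 1. LysB had 49.4, 27 and 66 RPKM in EE and 0.425, 0.0674, 0.37, 0.121 and 0.407 in progenitor libraries (5.17 ± 0.27, SE; limma adjusted p 8.70e-07). LysD, with 14.9, 12.9 and 17.8 RPKM in EE libraries, and LysC, with 7.09, 2.65 and 3.98, were listed at 0 in all 5 progenitor libraries. LysC is annotated as a pseudogene, and both share exonic bases with a gene on the opposite strand, so their values are less certain. Without any 1 of the EE libraries 2 lysozymes of 3 tested were higher. Among immune genes 5 of 31 were higher and 4 lower (median -0.22; 2 to 5 higher when 1 library was left out). The NF-kappaB factor Rel had 51, 26.3 and 30.5 RPKM in EE and 253, 60.05, 148, 225 and 201 in progenitor libraries (-2.17 ± 0.44, SE; limma adjusted p 0.00282), its negative regulator pirk had 46.2, 18.1 and 13.4 RPKM in EE and 305, 82.6, 160.0, 196 and 174 in progenitor libraries (-2.85), and the receptor PGRP-LC fell by 1.39 on the log2 scale. The secreted amidase PGRP-SC2 had 35.6, 18.7 and 69.7 RPKM in EE and 1.89, 0.939, 7.97, 0.0994 and 0.278 in progenitor libraries (3.98). CecC, an antimicrobial peptide, had 1.64, 28.7 and 5.3 in EE libraries, mostly in replicate 2, and 0.289, 0, 0, 0 and 0 in progenitor libraries.

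The largest single rises were mostly genes named by a CG number alone. Ranked over all calls without overlap between groups, the 12 largest rises were whe, CG45080, CG16826, lcs, CG34212, CG33109, CG34458, CG43679, LysP, Ag5r, CG13947 and CG44142, with log2 fold changes of 7.23 to 9.77. EE replicate 1 was the lowest of its group for 11 of them. CG34212 had 674, 7580.4 and 3596 RPKM in EE and 41.9, 0, 14.9, 2.18 and 0 in progenitor libraries (9.15 ± 1.3, SE; limma adjusted p 0.000333). lcs had 430.1, 3810.5 and 5988 RPKM in EE and 16.2, 0, 15.2, 1.51 and 0 in progenitor libraries (9.17 ± 1.19, SE; limma adjusted p 0.00019), and whe had 1801, 26404 and 11441 RPKM in EE and 138, 0.0949, 60.4, 6.75 and 0 in progenitor libraries. Progenitor replicates 1 and 3 carried CG34212, lcs and whe at 14.9 to 138 RPKM, where replicates 2 and 5 were at or near 0. CG34458 and CG13947 varied less between EE libraries than these. CG34458 (FBgn0085487, chromosome 2R, 16672033 to 16672889) had 425, 635 and 289.8 RPKM in EE and 0.607, 0.673, 0, 3.38 and 1.69 in progenitor libraries (7.75 ± 0.45, SE; limma adjusted p 1.33e-06), and CG13947 (FBgn0031277, chromosome 2L, 779173 to 779655) 194, 247 and 207 RPKM in EE and 1.61, 0, 1.01, 0 and 0 in progenitor libraries (7.27 ± 0.35, SE; limma adjusted p 6.96e-07).

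**Figure D5:**
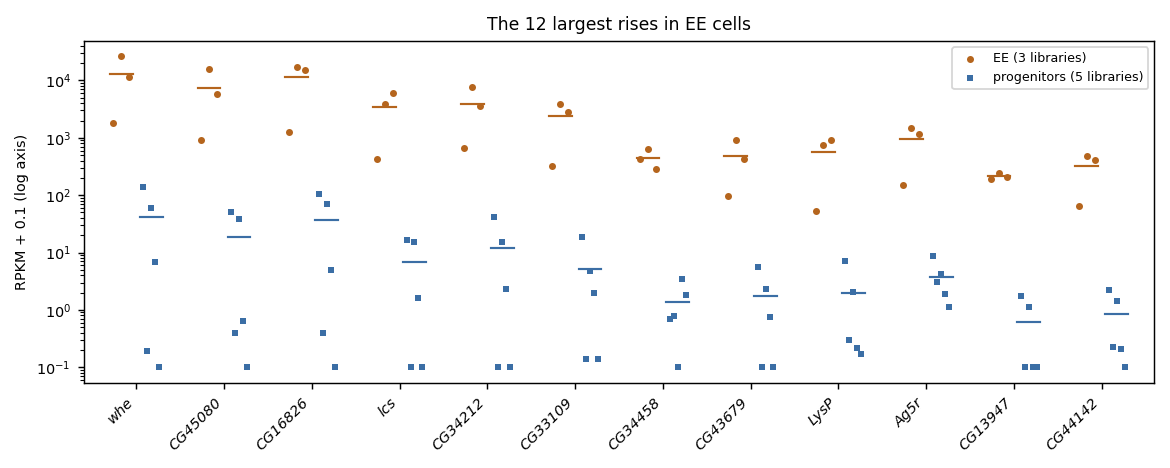
RPKM + 0.1 on a log axis of the 12 largest rises in each EE library (circles, left of each pair, n = 3, replicates 1 to 3 from left to right) and progenitor library (squares, right, n = 5, replicates 1 to 5 from left to right), with group means as lines. EE replicate 1 lies lowest in its group for 11 of the 12 genes, CG34458 being the exception, and progenitor replicates 2 and 5 lie at or near 0 for most.

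The 12 largest falls, by the same rule, were lncRNA:CR44538, CG9021, FBgn0085364 (which has no entry in the annotation used here), CG6912, CG6330, Sox21a, ect, mthl8, CG44085, Mes2, Sox100B and E(spl)m3-HLH, with log2 fold changes of -5.05 to -3.47. Sox21a, Sox100B and E(spl)m3-HLH are among the progenitor markers already used to check the labels. mthl8, a receptor of the methuselah family (FBgn0052475, chromosome 3L, 22428 to 26308), had 0, 0 and 0.00778 RPKM in EE and 8.84, 12.7, 10.2, 13.9 and 13.3 in progenitor libraries, and its fold depends on the pseudocount. CG9021 (FBgn0031747, chromosome 2L, 5903178 to 5904689) had 1.23, 0.536 and 0.672 RPKM in EE and 56.7, 21, 75.1, 24.5 and 68.8 in progenitor libraries (-4.63 ± 0.43, SE; limma adjusted p 2.13e-05), and CG6330 had 11.7, 12.2 and 14.7 RPKM in EE and 172, 142, 58.9, 796 and 479 in progenitor libraries (-4.02 ± 0.71, SE; limma adjusted p 0.00127), highest in progenitor replicates 4 and 5. The SOX factor Sox21a (FBgn0036411, chromosome 3L, 14103481 to 14108118) had 0.856, 0.496 and 0.659 RPKM in EE and 23.9, 6.93, 42.3, 26 and 33.9 in progenitor libraries (-3.85 ± 0.47, SE; limma adjusted p 0.000126), lowest among progenitors in replicate 2.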

How the data were processed

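RNA was amplified from sorted midgut cells, and libraries were grouped by the cell type in their labels. The submitters' processing notes name STAR, featureCounts 1.6.3, DESeq2 and the genome build BDGP6. The authors deposited 1 table of RPKM values per gene, whose read total is not given in the sources used here. Low RPKM values times exonic length fell on whole multiples (within 0.05) for 98.3% to 98.5% of values up to 20 reads, from which the read totals were implied, and on counting error alone deeper libraries are the more precise. Every column was mapped to a sample by its name. Of 17490 rows, 17489 were analysed, and 17215 had an entry in Ensembl release 115 (BDGP6.54), from which symbols, coordinates and shared exonic bases were taken.

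Genes with an RPKM of at least 1 in 3 of the 8 libraries were tested on log2(RPKM + 1) with limma 3.58.1 in R 4.3.3 (eBayes with trend, 2-sided, Benjamini-Hochberg adjustment over the 8161 genes). The script was tested on simulated data. Lists came from 43 hand-written lists and 28 families matched by name, and 66 of 1250 listed symbols had no match and were not analysed here. A member could be named if it was among the 4 largest called rises or falls of its list, in a list of at most 12 members, a cell type marker, or among the 12 largest rises or falls of all genes without overlap. The 15 named genes outside that rule (ETHR, Gr64f, LanB2, MCU, Men-b, N, NPFR, Pka-R2, Rab3-GEF, Rim, Snap25, Syt7, Sytbeta, Syx16 and tum) were chosen after their values were seen. The groups, genes and lists were all chosen with earlier results of these data known. In all, 22 alternatives were run, on the pseudocount, filter, scaling, thresholds, samples, weights and replicate block. Of the 263 genes named, 72 share exonic bases with a neighbour. Tables and plots were made in Python 3.11.15 with numpy 2.4.6, pandas 2.3.3 and matplotlib 3.10.9.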

Additional observations from a re-analysis of the deposited data

Results flagged for a closer look

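The genes named in the text were screened for a progenitor library far from the other 4 on log2(RPKM + 1), by Dixon's ratio of the gap to the range (above 0.71 for 5 libraries), and 12 of 263 were found, where chance gives about 1 in 20 groups. The EE group of 3 libraries was not screened. Progenitor replicate 3 stood apart for 5 genes. It was low for the cathepsin gene CtsB (173 RPKM), the tetraspanin Tsp42Ee (210.0 RPKM) and dpr5 (0.0606 RPKM), and high for the talin gene rhea (30.9 RPKM). For the cytokinesis gene tum it was low as well (3.36 RPKM). Progenitor replicate 2 was high for the peptidase Nep2 (0.762 RPKM) and low for the active zone gene brp (0.438 RPKM) and for bru3 (1.04 RPKM). Progenitor replicate 5 was low for the maltase Mal-A3 (0.578 RPKM) and high for the elongation factor eEF1alpha2 (6.36 RPKM). Progenitor replicate 4 was high for Ugt37D1 (37.6 RPKM). Progenitor replicate 1 alone had reads of the cecropin CecC (0.289 RPKM).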

How the results depend on the processing

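No called gene was called in the opposite direction under any of the 22 alternatives. A change of sign without a call was not counted, and the alternative thresholds reused the same fit. The number called lower was the value that moved most. Of 1183 genes called lower with the values as deposited, the count was 1801 after quantile normalization, 2832 after scaling without ribosomal protein genes, 1917 at an adjusted p below 0.05 and 780 at an absolute log2 fold change above 1. The share higher among called genes was 58.1% as deposited, 44.8% after quantile normalization and 28.1% after scaling without ribosomal protein genes. With 1 library left out, the count called ranged from 1460 to 3091, that higher from 883 to 1661 and that lower from 577 to 1430, and the low ends came from leaving out EE replicate 2. Of the 263 genes named, 34, 49 and 49 then missed the threshold without EE replicate 1, 2 and 3, and another 30 could not be tested in each case. Among the 5005 tested genes free of exonic overlap, 1859 were called, 1083 higher and 776 lower. Whether the replicate numbers pair the libraries is not said by the labels, and correlations in groups of 3 and 5 libraries cannot settle it. The deviations of same-numbered EE and progenitor libraries correlated at 0.015, -0.109 and 0.261, and only replicate 3 of the EE libraries correlated best with its own number. With the replicate block 2533 genes were called, 1587 higher and 946 lower. Depth sets the limit for genes below about 1 RPKM, and genes seen in EE cells alone had to pass the filter in all 3 EE libraries.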

Other observations

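Of 30 axon guidance and cell adhesion genes 4 were called higher and 10 lower by limma (median log2 fold change -0.61; 5 to 11 lower when 1 library was left out), with 7 passing the filter only through progenitor libraries. Nrx-1, a presynaptic adhesion protein, had 24.5, 16.4 and 30.9 RPKM in EE and 2.27, 1.48, 2.23, 2.05 and 1.68 in progenitor libraries (3.05 ± 0.22, SE; limma adjusted p 4.10e-06). Sema2a, a secreted guidance cue, had 11, 10.2 and 6.67 RPKM in EE and 58.9, 71.9, 53.2, 68.1 and 70.1 in progenitor libraries (-2.69 ± 0.19, SE; limma adjusted p 4.64e-06), and caps, a leucine-rich repeat adhesion protein, had 14.4, 12.3 and 12.4 RPKM in EE and 98.9, 53.1, 120.3, 61.1 and 86 in progenitor libraries (-2.54). Of 10 dpr and DIP immunoglobulin genes tested 4 were higher (dpr5, dpr7, dpr19 and dpr1, by 2.5, 2.18, 1.82 and 1.6) and 1 lower (DIP-zeta). Of these 10, 2 passed the filter only through EE and 2 only through progenitor libraries. Among RNA-binding regulators known from neurons 3 of 20 were higher and 4 lower (median -0.31; 1 to 5 lower when 1 library was left out), against 20.1% higher and 14.5% lower of all genes. bru3 averaged 16.4 ± 3.12 RPKM in EE and 1.94 ± 0.527 in progenitor libraries (SD, n = 3 and 5), and mbl and pum rose by 1.72 and 1.4, while Syp, msi and mub were lower (-1.43, -1.42 and -1.04).

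Of 22 Rab GTPases, Rab3 among them, 5 were higher and 5 lower (median -0.18; 2 to 5 higher when 1 library was left out), 22.7% each way against 20.1% higher and 14.5% lower of all genes. RabX1, an endosomal Rab, had 18.1, 11.6 and 9.78 RPKM in EE and 161, 41.1, 135, 73.5 and 112 in progenitor libraries (-2.79 ± 0.42, SE; limma adjusted p 0.000439), and Rab9 had 9.23, 9.23 and 9.2 RPKM in EE and 38.2, 22.5, 66.3, 19.6 and 23.6 in progenitor libraries (-1.63), while Rab32 rose by 1.02. Long noncoding RNA genes were called higher for 72 and lower for 27 of 244 tested, of 1795 in the table (24 to 73 higher and 11 to 32 lower when 1 library was left out), but 40 had passed the filter only through EE and 47 only through progenitor libraries. Among genes used as references, Gapdh1 was higher (86.7, 106 and 141 RPKM in EE and 60.1, 37, 40.4, 51.5 and 53.2 in progenitor libraries) and Act5C lower (992, 741 and 683 RPKM in EE and 1780.1, 1346, 1153, 2524 and 2429 in progenitor libraries).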
